A study of Homo sapiens with 6 samples.

Results

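The genes described here are 50 genes of mitosis: the kinases and cyclins that start it, the checkpoint and kinetochore proteins that police chromosome attachment, the spindle and cytokinesis proteins, and the anaphase-promoting complex or cyclosome (APC/C) that ends it. They were chosen by name, kinesins other than CENPE left aside. All 50 were measured, by 138 of the 49395 probe sets of an Affymetrix PrimeView array, and each gene was read by its probe set with the highest mean, as were all 18132 genes. The cells were BCPAP, an established human cell line from papillary thyroid cancer. They carried a lentiviral short hairpin RNA that targets CSF2, which encodes the cytokine GM-CSF (shCSF2, n = 3 arrays), or a control hairpin with no target (shCtrl, n = 3 arrays). Both groups were placed under puromycin 48 hours after transduction and selected for 7 days, and the labels call the 3 arrays of each group biological replicates. How many hairpins were used is not stated in the labels. The labels do not say that replicates came from separate transductions, so p-values measure the spread between these samples.

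Entry into mitosis is driven by CDK1 bound to cyclin B, which CDC25 phosphatases switch on. Aurora and Polo-like kinases then build the spindle, and the spindle checkpoint holds back the APC/C, a ubiquitin ligase, until every kinetochore is attached. The APC/C with its coactivator CDC20 then marks cyclin B and securin for destruction, and with the coactivator CDH1 it keeps these proteins low in G1. Many of these genes are transcribed mainly in G2 and mitosis, under the MuvB complex with B-MYB and FOXM1.

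All values are log2 expression values, so a difference of 1 is a factor of 2, and differences are given as shCSF2 minus shCtrl. Array medians lay between 5.77 and 5.79. No probe set was paired with CSF2, so the knockdown was not checked on the targeted transcript. As a check of the labelled cell type, KRT7, KRT8 and KRT18 of 5 epithelial markers had brighter probe sets than the median gene and KRT19 and EPCAM dimmer ones. PAX8 and NKX2-1 of 6 thyroid markers were brighter, and FOXE1, TG, SLC5A5 and TSHR dimmer, and brightness differs between probe sets for reasons other than expression. Of the thyroid markers NKX2-1 was lower in shCSF2 cells (-0.42 ± 0.04, SE, adjusted p = 0.000315, limma), and their summed linear signal was 1044 to 1086 in shCSF2 and 1281 to 1292 in shCtrl arrays. Of the epithelial markers KRT8 was lower, and their sum was 8388 to 8726 against 8487 to 8906. Of the 4 leukocyte markers measured 0 passed the limma test in either direction (0 also at an unadjusted p under 0.05), PTPRC, which encodes the pan-leukocyte antigen CD45, was at 2.33 and 2.35, and their summed linear signal was 51.6 to 57.8 in shCSF2 and 53.8 to 55.7 in shCtrl arrays. Of the 4 fibroblast markers COL1A2 was lower, and their summed signal was 87.2 to 98.2 against 96.1 to 107.7. Of 3 endothelial markers 0 passed in limma (0 also unadjusted), with sums of 201.8 to 219.9 against 216.2 to 235.5. The part of these markers in the results was not tested. The 3' minus 5' signal of the GAPDH and ACTB control probe sets, a measure of RNA integrity, averaged 0.301 ± 0.026 in shCSF2 and 0.278 ± 0.023 in shCtrl arrays (SD, n = 3; exact two-sided permutation p = 0.3, where 0.1 is the smallest possible). For GAPDH alone the groups did not overlap (-0.009 ± 0.011 against -0.034 ± 0.013, SD, n = 3; exact p = 0.1), and the part of this in the results was not tested.

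Most of these 50 genes were lower in shCSF2 cells, and 4 APC/C subunits were higher. Of the 50 genes, 31 fell and 4 rose at an adjusted p of 0.05 in limma, against 16.0% of all genes lower and 16.7% higher (32.7% in either direction). The probe sets of 48 of the 50 were brighter than the median over all genes, and bright probe sets passed more often. With only genes at least that bright tested, 34 of the 48 fell and 5 rose, against 29.8% lower and 34.2% higher among all genes so tested. The median difference over the 50 genes was -0.20, beside -0.03 over all genes. The falls were modest, from 1.09-fold for FBXO5 to 1.59-fold for TOP2A, and 2 genes, TOP2A and PRC1, exceeded 1.5-fold. The genes that rose, CDC23, CDC16, ANAPC1 and ANAPC4, encode subunits of the APC/C itself. Among the other 43 genes (a split made after the values were seen), 31 fell and 0 rose, and at an unadjusted p under 0.05 the counts were 35 and 0. In 35 of the 50 genes every shCSF2 array lay below every shCtrl array, and in 5 every one lay above, against 24.6% and 22.1% of all genes (46.7% without overlap in either direction). In bulk RNA, fewer cells in G2 and mitosis and less of each transcript per cell cannot be told apart.

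**Figure D1:**
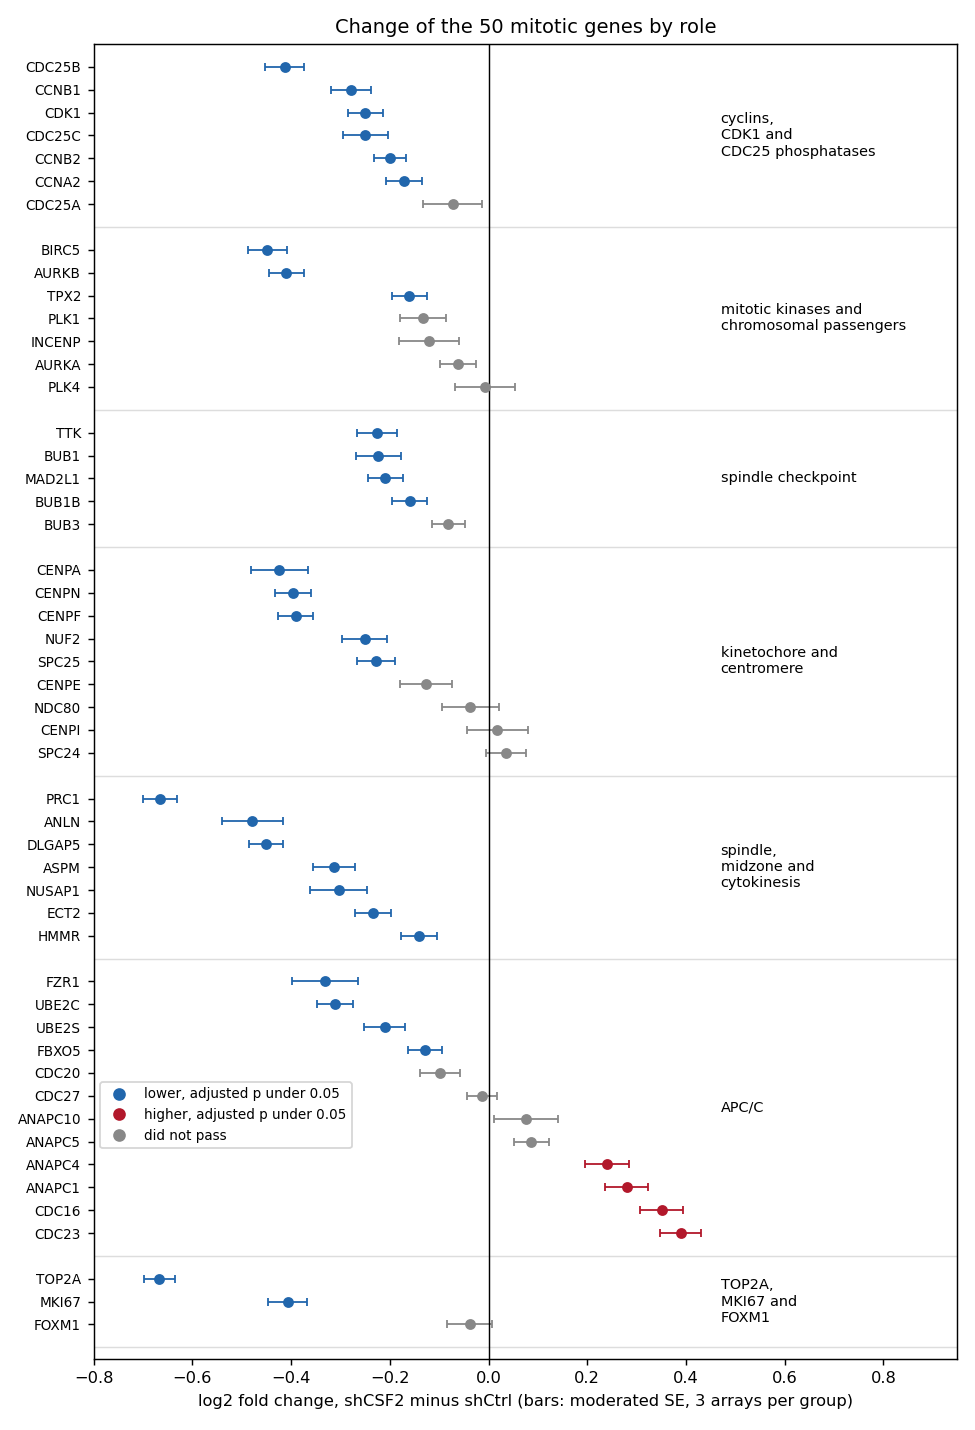
Log2 fold change (x axis, shCSF2 minus shCtrl, bars are moderated SE, 3 arrays per group) of each of the 50 genes, grouped by role; blue marks genes that fell, red genes that rose and grey genes that did not pass. The spindle, midzone and cytokinesis genes are all blue, and the 4 red points are APC/C subunits.

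Taking each gene's deviation from its mean over the 6 arrays, the median over the 43 genes outside the APC/C subunits was -0.106, -0.093 and -0.117 on the shCSF2 arrays and 0.106, 0.108 and 0.124 on the shCtrl arrays. For the 7 APC/C subunits among the 50 it was 0.093, 0.143 and 0.122 on the shCSF2 arrays and -0.117, -0.126 and -0.048 on the shCtrl arrays. Over all genes it stayed between -0.011 and 0.015. These values show the calls array by array and are no further support for them, since the split was made from the same values.

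Promoters of mitotic genes are known for CCAAT boxes, bound by NF-Y, and for the cell cycle genes homology region (CHR), bound by MuvB, so both were searched for in RefSeq promoter sequences. The windows were 300 bases, 250 before and 50 after the annotated start, on GRCh38.p14, with the first window listed for each gene. Of the 50 genes 43 matched an entry. FOXM1, BIRC5, TTK, BUB3, UBE2C, AURKA and TPX2 did not. The 250 bases before the start are shown for the 8 genes with the largest falls among those with an entry, from most to least, and then for the pair of APC/C subunits that rose most, so that windows with both, either and neither motif can be read side by side. Capitals mark CCAAT or its reverse complement ATTGG, and the CHR letters TTTGAA or TTCGAA or the reverse complement TTCAAA, and each sequence is on the gene's own strand, 5′ to 3′.
TOP2A (chr17:40417897-40418146, minus strand): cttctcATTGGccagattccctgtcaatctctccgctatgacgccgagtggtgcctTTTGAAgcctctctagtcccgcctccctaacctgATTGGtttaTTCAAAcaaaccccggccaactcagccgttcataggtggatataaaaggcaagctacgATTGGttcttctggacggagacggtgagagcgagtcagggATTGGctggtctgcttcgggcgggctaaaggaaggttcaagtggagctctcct
PRC1 (chr15:90994536-90994785, minus strand): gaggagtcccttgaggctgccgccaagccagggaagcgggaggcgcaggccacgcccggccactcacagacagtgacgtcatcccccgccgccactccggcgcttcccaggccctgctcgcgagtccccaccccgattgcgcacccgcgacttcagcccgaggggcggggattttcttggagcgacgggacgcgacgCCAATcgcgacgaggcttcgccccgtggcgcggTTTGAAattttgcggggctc
ANLN (chr7:36389612-36389861, plus strand): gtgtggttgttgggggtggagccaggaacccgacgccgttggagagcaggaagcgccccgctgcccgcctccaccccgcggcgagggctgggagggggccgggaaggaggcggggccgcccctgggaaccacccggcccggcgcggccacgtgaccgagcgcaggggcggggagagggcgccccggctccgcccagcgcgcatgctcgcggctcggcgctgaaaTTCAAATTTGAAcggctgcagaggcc
DLGAP5 (chr14:55191586-55191835, minus strand): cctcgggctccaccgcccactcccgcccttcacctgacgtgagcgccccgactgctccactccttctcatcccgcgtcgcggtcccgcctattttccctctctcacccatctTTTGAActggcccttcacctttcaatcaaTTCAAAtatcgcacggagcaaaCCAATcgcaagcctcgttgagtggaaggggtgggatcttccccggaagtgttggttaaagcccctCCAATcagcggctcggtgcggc
CENPA (chr2:26785806-26786055, plus strand): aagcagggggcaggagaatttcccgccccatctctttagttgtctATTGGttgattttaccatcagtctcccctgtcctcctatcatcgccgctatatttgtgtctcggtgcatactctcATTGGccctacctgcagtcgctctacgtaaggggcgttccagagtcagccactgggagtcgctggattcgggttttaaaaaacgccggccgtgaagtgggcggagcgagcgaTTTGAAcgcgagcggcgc
CDC25B (chr20:3786701-3786950, plus strand): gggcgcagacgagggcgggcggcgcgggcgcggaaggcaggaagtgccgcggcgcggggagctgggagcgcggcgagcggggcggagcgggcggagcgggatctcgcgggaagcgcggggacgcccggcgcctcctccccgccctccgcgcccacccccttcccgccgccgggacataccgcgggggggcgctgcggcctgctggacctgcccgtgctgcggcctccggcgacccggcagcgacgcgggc
AURKB (chr17:8210226-8210475, minus strand): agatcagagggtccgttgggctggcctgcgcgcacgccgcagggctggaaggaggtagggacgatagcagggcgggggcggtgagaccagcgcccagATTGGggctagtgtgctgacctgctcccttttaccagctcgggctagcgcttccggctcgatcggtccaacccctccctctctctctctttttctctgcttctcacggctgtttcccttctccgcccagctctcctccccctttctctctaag
MKI67 (chr10:128126424-128126673, minus strand): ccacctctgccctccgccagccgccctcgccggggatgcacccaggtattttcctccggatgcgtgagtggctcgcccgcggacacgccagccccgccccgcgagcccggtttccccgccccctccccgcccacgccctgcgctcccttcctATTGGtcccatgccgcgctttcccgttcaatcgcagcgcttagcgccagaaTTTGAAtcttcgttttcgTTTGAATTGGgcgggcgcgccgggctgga
CDC23 (chr5:138213324-138213573, minus strand): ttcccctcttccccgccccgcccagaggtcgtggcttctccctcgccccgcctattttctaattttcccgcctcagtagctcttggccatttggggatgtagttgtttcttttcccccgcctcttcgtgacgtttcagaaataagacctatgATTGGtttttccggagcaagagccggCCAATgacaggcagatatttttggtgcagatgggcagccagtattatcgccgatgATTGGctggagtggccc
CDC16 (chr13:114234647-114234896, plus strand): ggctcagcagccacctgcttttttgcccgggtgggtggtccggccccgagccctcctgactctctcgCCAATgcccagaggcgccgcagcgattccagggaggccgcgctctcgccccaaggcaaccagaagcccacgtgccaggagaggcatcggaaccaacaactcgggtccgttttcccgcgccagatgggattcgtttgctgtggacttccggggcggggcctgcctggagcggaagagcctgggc

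TOP2A held 4 CCAAT boxes, all on the opposite strand. PRC1 had a single CCAAT box 53 bases and a CHR 20 bases before the start. CENPA had its CHR 18 bases before the start. ANLN held CHR letters and no CCAAT, AURKB held 1 CCAAT and no CHR letters, and CDC25B held neither, and all 3 fell. Only the first window listed for a gene was searched, and the start used in these cells was not measured. In MKI67 a CCAAT box and a CHR shared a base. CDC23 had 3 CCAAT boxes and CDC16 had 1, and neither window held the CHR letters.

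Searched on both strands, CCAAT was found in 29 of the 43 windows (67.4%), against 35.7% of the windows of all 27305 genes with an entry. These are not the 18132 genes of the array that serve as all genes elsewhere. The CHR letters (TTTGAA or TTCGAA) were found in 26 (60.5%), against 16.6%, and both motifs in 19 (44.2%), against 6.58%. Among the 27 genes that fell and had a window, 20 held CCAAT, 20 held CHR letters and 16 held both. Among the 4 that rose, 2 held CCAAT and 1, ANAPC1, held CHR letters, and 0 held both. Of the 12 that did not pass, 7 held CCAAT, 5 held CHR letters and 3 held both. The forkhead letters GTAAACA were in 1 window, that of CDK1 (2.33%, against 3.41% of the 27305 genes), and ATAAACA was in 0 (against 4.33%). These letters describe the windows, and no binding was measured.

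**Figure D2:**
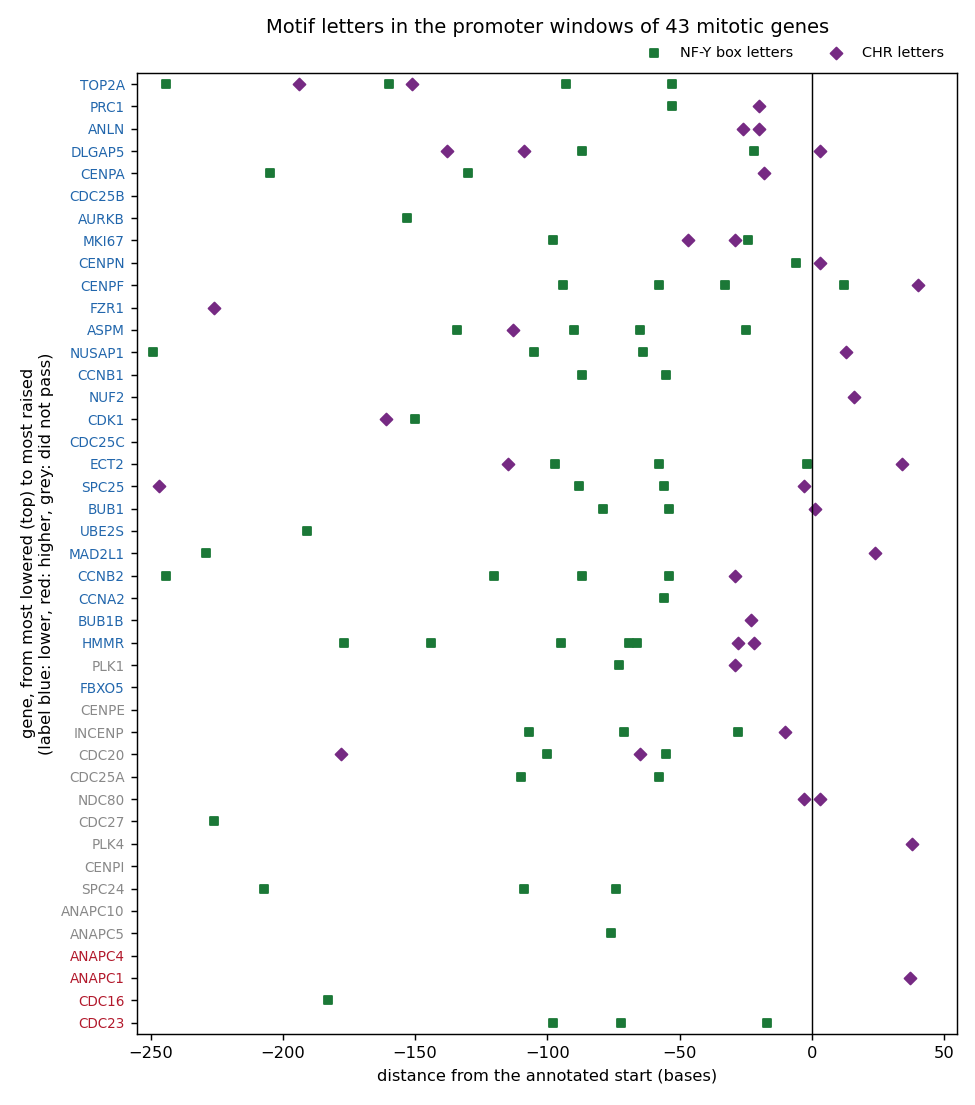
Position of NF-Y box (squares) and CHR letters (diamonds) in the promoter windows of 43 genes, in bases from the annotated start (x axis), with genes ordered from the most lowered at the top to the most raised at the bottom and names coloured by call. Of the 19 genes with both motifs 16 have blue names, and none of the 4 red names at the bottom has both.

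The cyclins, CDK1 and the CDC25 phosphatases fell in 6 of 7 cases, with a median difference of -0.25. CDC25B, which activates CDK1 at the G2/M transition, was 9.48, 9.49 and 9.53 on the shCtrl arrays and 9.10, 9.04 and 9.13 on the shCSF2 arrays. The groups did not overlap, and the difference was -0.41 ± 0.04 (SE, adjusted p = 0.000365, limma). CCNB1, the main mitotic cyclin gene, was 10.80, 10.82 and 10.79 in shCtrl and 10.52, 10.58 and 10.47 in shCSF2 cells, a difference of -0.28 ± 0.04 (adjusted p = 0.00205). CDK1 itself read 10.51, 10.54 and 10.55 in shCtrl and 10.28, 10.32 and 10.26 in shCSF2 cells, a difference of -0.25 ± 0.04 (adjusted p = 0.00187). Neither CCNB1 nor CDK1 overlapped between groups. CDC25C (-0.25), CCNB2 (-0.20) and CCNA2, the S and G2 cyclin gene (-0.17), also fell. CDC25A, the phosphatase that also acts at G1/S, did not pass, with a difference of -0.07 and a 95% interval from -0.21 to 0.07.

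Among the 7 kinases and chromosomal passenger proteins 3 fell, with a median of -0.13, and the larger falls were in the Aurora B complex. BIRC5 encodes survivin, which targets that complex to centromeres. It read 9.29, 9.31 and 9.40 in shCtrl and 8.90, 8.88 and 8.88 in shCSF2 cells, a difference of -0.45 ± 0.04 (adjusted p = 0.000274), and 11 of its 12 probe sets fell. AURKB, the complex's kinase, was 8.38, 8.37 and 8.41 in shCtrl and 7.95, 8.01 and 7.96 in shCSF2 cells, a difference of -0.41 ± 0.04 (adjusted p = 0.000243). Neither gene overlapped between groups. TPX2, the spindle activator of Aurora A, fell less, from 9.67, 9.65 and 9.70 to 9.51, 9.54 and 9.48 (-0.16 ± 0.04, adjusted p = 0.0123). The other 4 did not pass. AURKA, which matures centrosomes, differed by -0.06 (95% interval -0.15 to 0.03), and PLK4, which starts centriole duplication, by -0.01 (-0.15 to 0.14). PLK1, which acts at most steps of mitosis, differed by -0.13 (-0.24 to -0.02, adjusted p = 0.0714) with its groups not overlapping. INCENP, the scaffold of the Aurora B complex, differed by -0.12 (-0.27 to 0.02). PLK1 passed under 5 of the alternative settings. The difference between AURKB and AURKA was not tested.

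Of the 5 spindle checkpoint genes 4 fell, with a median of -0.21 over the 5. TTK, the MPS1 kinase that starts checkpoint signalling, was 8.93, 8.96 and 8.98 in shCtrl and 8.79, 8.72 and 8.69 in shCSF2 cells (-0.23 ± 0.04, adjusted p = 0.00522). BUB1, a kinetochore kinase, went from 8.26, 8.30 and 8.34 to 8.06, 8.15 and 8.02 (-0.22 ± 0.05, adjusted p = 0.0092). MAD2L1, which encodes the MAD2 protein that captures CDC20, went from 9.95, 10.01 and 9.94 to 9.75, 9.77 and 9.75 (-0.21 ± 0.04, adjusted p = 0.00402). In each of the 3 genes all shCSF2 arrays lay below all shCtrl arrays. BUB1B, the gene of the APC/C inhibitor BUBR1, also fell (-0.16). BUB3 did not pass (-0.08, 95% interval -0.16 to -0.0035, adjusted p = 0.105), although its arrays did not overlap, and it passed with the median filter (0.0312) and with a variance trend (0.0101). Its other probe sets gave 0.04 and 0.12 and did not pass, so the direction of BUB3 is uncertain. MAD2L1 lost its call by its most variable probe set (-0.22, adjusted p = 0.0623), and 2 of its 4 probe sets passed.

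Of 9 kinetochore and centromere genes 5 fell, with a median of -0.23, which was -0.13 with each gene's probe sets averaged. CENPA, the histone variant that marks the centromere, was 9.20, 9.28 and 9.23 in shCtrl and 8.93, 8.76 and 8.75 in shCSF2 cells (-0.42 ± 0.06, adjusted p = 0.00148), and all 4 of its probe sets fell. CENPF, a large kinetochore and farnesylated protein that peaks in G2 and mitosis, went from 8.43, 8.38 and 8.45 to 8.03, 8.04 and 8.02 (-0.39 ± 0.04, adjusted p = 0.000316). In both genes the groups did not overlap. CENPN, a reader of the CENP-A nucleosome, went from 9.63, 9.64 and 9.68 to 9.22, 9.29 and 9.25 (-0.40 ± 0.04, adjusted p = 0.000301) by its brightest probe set, but the other 5 of its 6 probe sets did not pass, and the difference was 0.0022 with all averaged, so its direction is uncertain.

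The 4 subunits of the NDC80 complex, which grips microtubules, lay on both sides of the threshold. NUF2 (-0.25 ± 0.05) and SPC25 (-0.23 ± 0.04) fell, whereas NDC80 (-0.04, 95% interval -0.17 to 0.10) and SPC24 (0.04, -0.06 to 0.13) did not pass. Whether these subunits differ from each other was not tested. NDC80 itself was 8.55, 8.73 and 8.64 in shCtrl and 8.57, 8.68 and 8.55 in shCSF2 cells, with overlapping groups. CENPE, the kinetochore motor (-0.13), and CENPI, a centromere protein (0.02), did not pass either. CENPE passed in limma when shCtrl replicate 2 was left out (-0.18, adjusted p = 0.0374), with the median filter (0.0339) and with a variance trend (0.0256).

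All 7 genes of the spindle, its midzone and cytokinesis fell, with a median of -0.31. PRC1, which bundles the antiparallel microtubules of the midzone, was 10.39, 10.38 and 10.42 in shCtrl and 9.70, 9.75 and 9.74 in shCSF2 cells. That gap of -0.67 ± 0.03 (1.59-fold, adjusted p = 4.09e-05) was larger than the spread within either group, which did not overlap. ANLN, anillin of the cleavage furrow, went from 9.25, 9.40 and 9.27 to 8.82, 8.92 and 8.75 (-0.48 ± 0.06, adjusted p = 0.0012), with a wider spread but no overlap. DLGAP5, which stabilises spindle microtubules, went from 8.57, 8.61 and 8.56 to 8.14, 8.15 and 8.10 (-0.45 ± 0.04, adjusted p = 0.00017). ASPM, which focuses spindle poles (-0.31), NUSAP1, a microtubule bundler (-0.30), and ECT2, the RhoA exchange factor of cytokinesis (-0.23), followed. HMMR, a spindle and hyaluronan-binding protein, fell least (-0.14 ± 0.04, adjusted p = 0.0236) and missed the threshold when shCSF2 replicate 1 or 2 was left out (adjusted p = 0.0521 and 0.0679, limma) or shCtrl replicate 1 or 3 (adjusted p = 0.0716 and 0.0692).

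**Figure D3:**
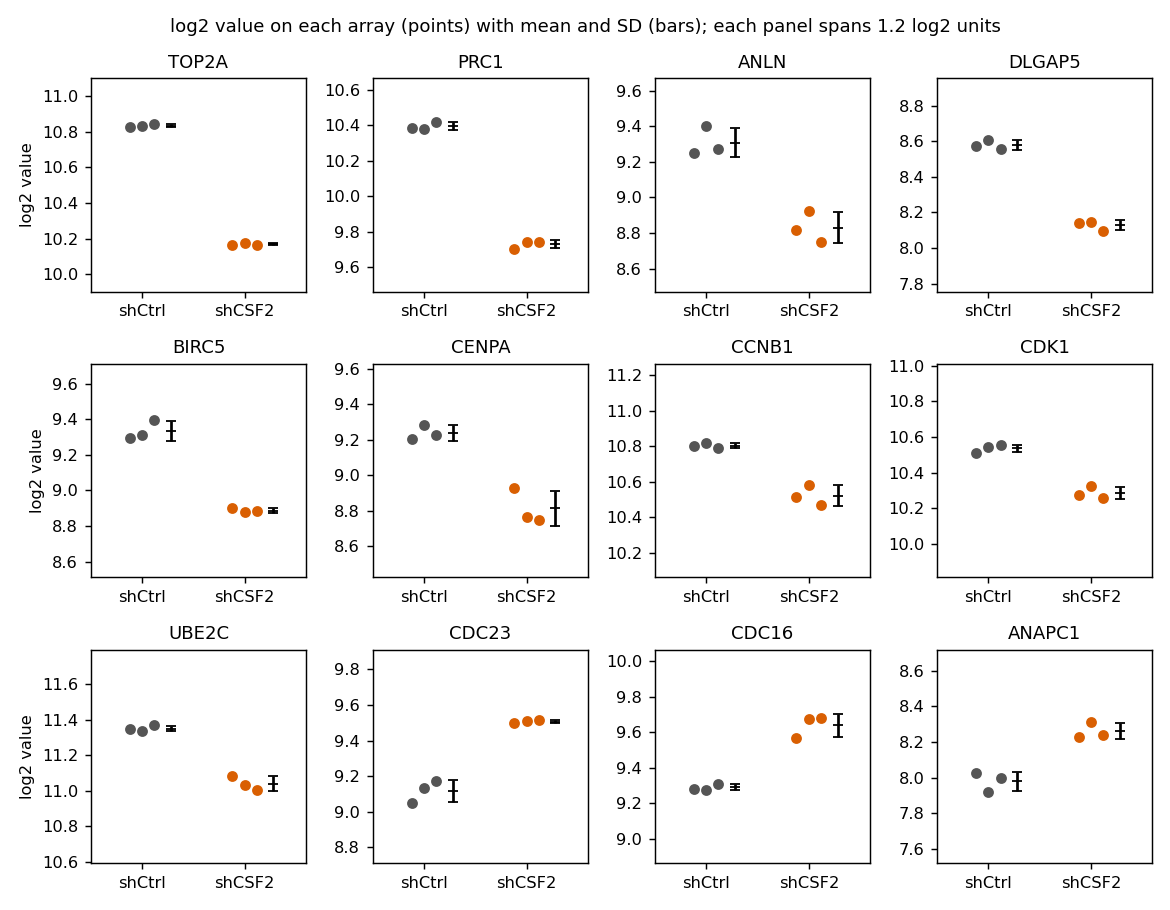
Log2 value on each array (points) with the group mean and SD (bars) for 12 of the genes; each panel spans 1.2 log2 units around the gene's mean. Grey shCtrl points lie above orange shCSF2 points for the first 9 genes and below them for CDC23, CDC16 and ANAPC1.

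The 12 APC/C genes moved in both directions. Of the 7 subunits among the 50 genes 4 rose and 0 fell (0 also at an unadjusted p under 0.05), while of the other 5, which encode coactivators, ubiquitin-conjugating enzymes and an inhibitor, 4 fell and none was above 0. CDC23, a scaffold subunit built of TPR repeats (APC8), was 9.05, 9.13 and 9.17 in shCtrl and 9.50, 9.51 and 9.51 in shCSF2 cells, a difference of 0.39 ± 0.04 (1.31-fold, adjusted p = 0.000548). All 4 of its probe sets rose. CDC16, another TPR subunit (APC6), went from 9.28, 9.28 and 9.31 to 9.57, 9.68 and 9.68 (0.35 ± 0.04, adjusted p = 0.000976). Of its 6 probe sets 5 rose and 1, with a mean of 7.01, fell by 0.41, and the difference was 0.21 with all averaged. ANAPC1, the largest subunit, went from 8.02, 7.92 and 7.99 to 8.23, 8.31 and 8.24 (0.28 ± 0.04, adjusted p = 0.00284), and ANAPC4, which joins the scaffold, from 7.92, 7.98 and 8.06 to 8.20, 8.25 and 8.23 (0.24 ± 0.04, adjusted p = 0.00606). In these 4 genes every shCSF2 array was above every shCtrl array.

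ANAPC5 (0.09, 95% interval 0.0034 to 0.17, adjusted p = 0.106) and ANAPC10, which helps recognise substrates (0.08, -0.08 to 0.23), did not pass. ANAPC5 passed in 3 alternatives, the median filter (adjusted p = 0.0312, limma), a variance trend (0.0123) and averaged probe sets (0.0477). CDC27, the TPR subunit that coactivators dock on, differed by -0.01 (-0.09 to 0.06), and by 0.15 (adjusted p = 0.0479) with its most variable probe set. CDC27 has closely related copies in the genome, and its brightest probe set is of a kind that can bind related transcripts, so its value is uncertain. The brightest probe sets of CDC16, UBE2C, DLGAP5 and PLK1 are of the same kind.

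FZR1, the gene of the CDH1 coactivator, read 6.24, 6.27 and 6.35 in shCtrl and 5.91, 6.09 and 5.86 in shCSF2 cells (-0.33 ± 0.07, adjusted p = 0.00902). By the mean of its 3 probe sets, of which 1 passed, the difference was -0.12. The 2 that did not pass gave -0.06 and 0.03, so the size of the fall is uncertain. UBE2C, the enzyme that primes APC/C substrates with ubiquitin, fell by 0.31 (SE 0.04, adjusted p = 0.000866), with all 4 probe sets lower. UBE2S, which extends the chains, fell by 0.21 and FBXO5, the APC/C inhibitor EMI1, by 0.13. FBXO5 passed without shCSF2 replicate 3 (adjusted p = 0.0354, limma) and missed the threshold without shCSF2 replicate 1 or 2 (0.0924 and 0.0720) or without shCtrl replicate 1, 2 or 3 (0.0827, 0.0675 and 0.0690). It also missed it with the replicate number as a block (0.0615). CDC20, the mitotic coactivator, was 10.43, 10.51 and 10.43 in shCtrl and 10.32, 10.40 and 10.36 in shCSF2 cells and did not pass (-0.10, 95% interval -0.19 to -0.0025, adjusted p = 0.11), but passed with the median filter (0.0322) and with a variance trend (0.00906).

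TOP2A, the topoisomerase that untangles sister chromatids, showed the largest fall of the 50 genes. It was 10.83, 10.83 and 10.84 on the shCtrl arrays and 10.16, 10.17 and 10.16 on the shCSF2 arrays, so arrays within a group were nearly equal while the groups differed by -0.67 ± 0.03 (1.59-fold, adjusted p = 3.49e-05). Its other probe sets gave -0.75 and -0.78. MKI67, the Ki-67 proliferation marker, was 8.63, 8.64 and 8.69 in shCtrl and 8.20, 8.30 and 8.24 in shCSF2 cells by its brightest probe set (-0.41 ± 0.04, adjusted p = 0.000409). Its other 5 probe sets did not pass and lay between -0.05 and 0.18, and with all 6 averaged MKI67 differed by -0.01, so its fall rests on that probe set. FOXM1, the transcription factor of the G2 and mitotic genes, was 6.63, 6.60 and 6.71 in shCtrl and 6.56, 6.67 and 6.59 in shCSF2 cells. Its groups overlapped, and the difference was -0.04 (95% interval -0.15 to 0.07), with 0 of its 3 probe sets past the threshold.

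Of the 138 probe sets of the 50 genes, tested in a fit over all probe sets with a gene symbol, 72 fell, 12 rose and 54 did not pass. The share of all probe sets called in that fit was not computed, so these counts have no background to be read against. Among the 35 genes with a call, 22 had more than 1 probe set, and in 14 of these every probe set passed in the direction of the call. The remaining 8 were BIRC5, MAD2L1, CENPN, PRC1, HMMR, CDC16, FZR1 and MKI67. CDC16 was the only called gene with a probe set past the threshold the other way.

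**Figure D4:**
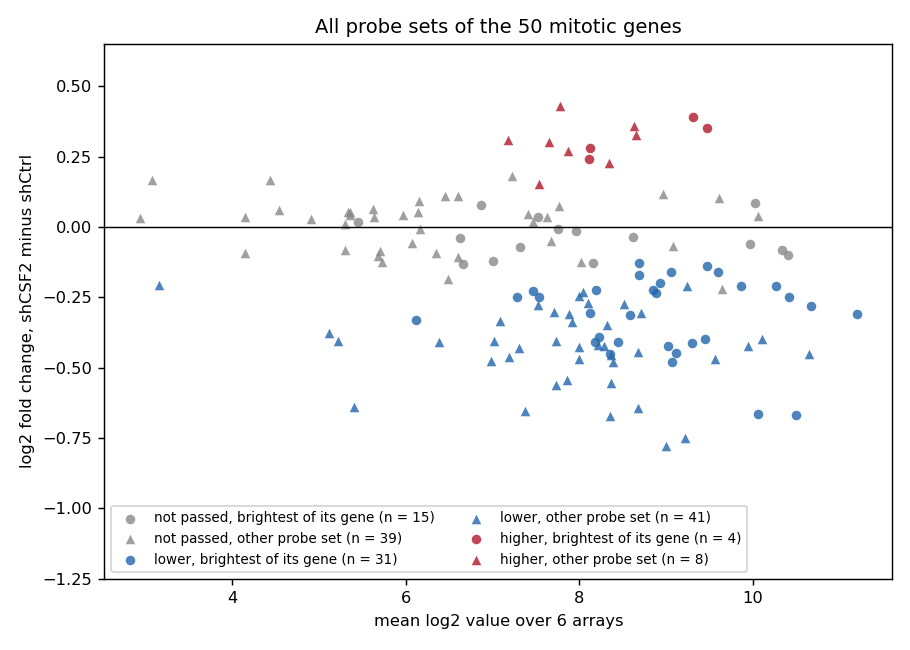
Log2 fold change (y axis, shCSF2 minus shCtrl) against mean log2 value over the 6 arrays (x axis) for the 138 probe sets of the 50 genes; circles are the brightest probe set of each gene and triangles the others, coloured by call. Of these, 72 are lower, 12 higher and 54 did not pass, with no share over all probe sets computed beside them.

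Other genes of mitosis, a list of 104 of which all but 3 were measured and which excluded the 50 and the kinesins, moved in both directions: 37 fell (36.6%, against 16.0% of all genes) and 19 rose (18.8%, against 16.7%), with a median of -0.07. Without a filter on brightness, the share that rose was near that of all genes. With only genes at least as bright as the median gene tested, 44 of the 92 left fell and 22 rose. Among all genes so tested, 29.8% were lower and 34.2% higher. Of 9 CDK1 regulators 6 fell, among them the inhibitory kinase WEE1 (-0.46 ± 0.03), and of 17 spindle and cytokinesis genes 12 fell, led by FAM83D, which recruits casein kinase to the spindle (-0.74 ± 0.04, from 9.21 ± 0.01 to 8.48 ± 0.05, SD, n = 3), and the centrosomal kinase NEK2 (-0.48 ± 0.04). In these groups 0 rose, and at an unadjusted p under 0.05 the counts were 0 and 1. The condensin subunit gene NCAPD3 fell by 0.48 (SE 0.04), while 5 of the 8 condensin genes did not pass. Of 12 MuvB, B-MYB and proliferation genes 5 fell (41.7%) and 3 rose (25%). MYBL2, the B-MYB gene, fell (-0.23 ± 0.06, SE, adjusted p = 0.0308, limma). Of the MuvB genes RBBP4 (-0.31) and LIN52 (-0.21) fell, LIN9 (0.30) and LIN37 (0.14) rose, and LIN54 (0.09) did not pass. MYBL2 and the MuvB genes were named after their values were seen.

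ZW10, which brings dynein to kinetochores, went from 7.47 ± 0.08 to 8.35 ± 0.03 (SD, n = 3; 0.88 ± 0.05, SE, adjusted p = 5.78e-05), a larger difference than that of any of the 50 genes. The checkpoint genes MAD2L1BP, whose product p31comet dismantles the checkpoint complex (0.56 ± 0.04), and MAD1L1, the MAD2 anchor (0.53 ± 0.06), rose, as did ESCO2, the cohesin acetyltransferase (0.51 ± 0.03). Of the 21 passenger, checkpoint and cohesion genes measured, 9 rose (42.9%, against 16.7% of all genes) and 4 fell (19.0%, against 16.0%). Among those that fell was SGO1, which protects cohesin at centromeres (-0.34 ± 0.06, adjusted p = 0.00415), named after its value was seen. Of 27 further kinetochore and centromere genes 7 rose (25.9%), 4 fell (14.8%) and 16 did not pass. The share that fell was near that of all genes. Among all genes at least as bright as the median gene, 34.2% were higher and 29.8% lower when tested alone.

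Further APC/C subunits were measured outside the 50 genes. Of these 7, 0 rose (0 also at an unadjusted p under 0.05) and 3 fell: ANAPC13 (-0.26), ANAPC11, the RING subunit (-0.21), and ANAPC15 (-0.18). Over both lists, 4 of 14 APC/C subunits rose, 3 fell and 7 did not pass, so the subunits did not all move one way. Over all genes 16.7% were higher and 16.0% lower. Among genes at least as bright as the median gene, tested alone, the shares were 34.2% and 29.8%. These counts of subunits are too small to be set apart from such shares. ANAPC11, ANAPC13 and ANAPC15 were named after their values were seen.

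**Figure D5:**
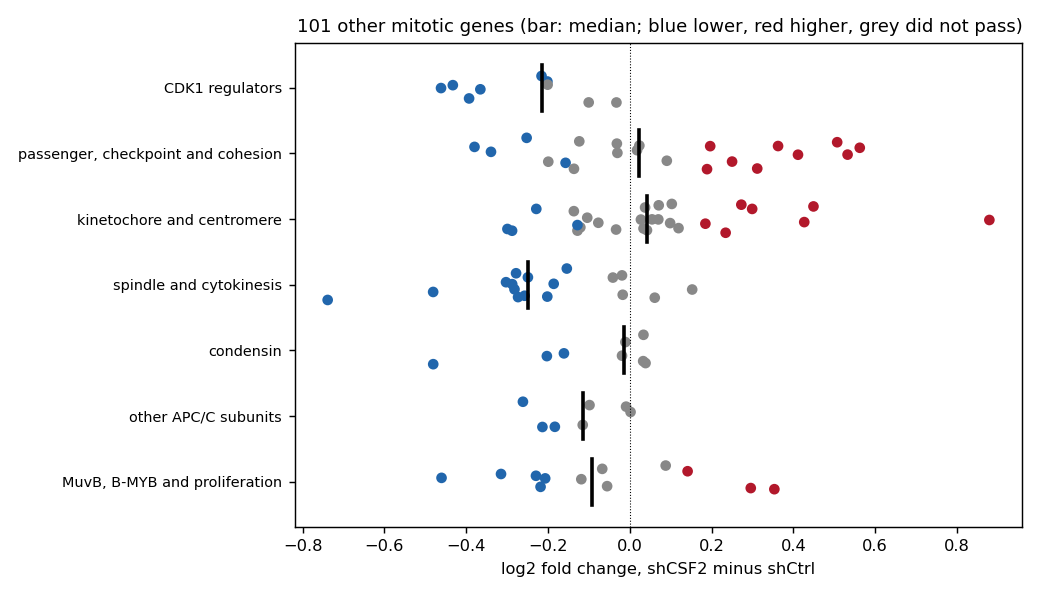
Log2 fold change (x axis, shCSF2 minus shCtrl) of the other mitotic genes (points, coloured by call and spread vertically for visibility) in 7 role groups, with the group median as a black bar. Medians lie at -0.22 for CDK1 regulators and -0.25 for spindle and cytokinesis genes, and near 0 for the cohesion and the kinetochore groups, which hold most of the red points.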

How the data were processed

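Total RNA of 6 BCPAP samples was labelled from 200 ng and hybridised to Affymetrix PrimeView arrays, per the labels' protocols. The deposited values are log2 expression summaries per probe set. RMA, oligo and limma are listed in the submitters' processing notes, with no version or role named. Probe-level files were not used here. RMA compresses differences at low signal. Probe sets with a single symbol in the platform annotation (44988 of 49395) named genes. Differences were fitted over all 18132 genes with lmFit and eBayes of limma 3.58.1 (R 4.3.3), without a block, and adjusted by the Benjamini-Hochberg method at a threshold of 0.05. In simulated data of this comparison (18132 genes, 50 changed per size), 6% of genes changed by 0.2 were recovered. The share was 36% for 0.3 and 70% for 0.5, and 5 of 81 calls were false. The simulation held fewer changed genes than the arrays did, so these rates need not apply to the real comparison. Intervals are 95% and use moderated SE. The number of arrays limits the precision.

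The members and lists were chosen with earlier results of these data known. Each array is given for the 3 called members with the largest change per role and for all that rose, and the 4 largest changes per direction are named from a list of 104 other mitotic genes. The remaining members are named to account for all 50, and array values of NDC80, CDC20 and FOXM1 were added after their values were seen. The same holds for the ANAPC subunits, SGO1, MYBL2 and the MuvB genes named from outside the 50 genes. Symbols were checked through gene identifiers against RefSeq (GRCh38.p14). Replicate numbers are shared between groups, but same-numbered arrays deviated together with r of 0.025, 0.053 and 0.033 across genes, so they were not treated as pairs. Alternatives were filters on dim genes, other normalisations, variance models, array weights, probe set rules, a replicate block and leaving out each array. Figures used matplotlib 3.10.9.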

Additional observations from a re-analysis of the deposited data

How the results depend on the processing

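Of the 35 called genes, 30 kept their call and direction in each of the 16 alternative settings in which they were tested. FZR1, among these 30, was dimmer than the median gene, so it was not tested with the median filter. Over these settings 29 to 34 of the 50 genes fell and 4 or 5 rose. The median difference of the 50 genes was -0.16 with each gene's probe sets averaged, -0.22 with the most variable probe set, and -0.21 to -0.19 when an array was left out. The median of the other mitotic genes was -0.10 after quantile normalisation again, -0.0861 after cyclic loess, -0.0859 with the most variable probe set and -0.0868 to -0.0501 when an array was left out. The median of the 7 APC/C subunits was 0.21 to 0.28 when an array was left out. Directions reversed for CENPN with all probe sets averaged (0.0022) and for CDC27 with its most variable probe set (0.15). Averaging probe sets also ended the calls of CENPN and MKI67, and the most variable probe set those of MAD2L1 and FBXO5. With the replicate block 30 genes fell and 4 rose, FBXO5 lost its call, and over all genes 2671 were lower and 2798 higher. Same-numbered arrays did not deviate together (r of 0.025, 0.053 and 0.033), and not every sample correlated best with its own number. PLK1, BUB3, CENPE, CDC20, ANAPC5 and CDC27, which did not pass, passed in at least 1 alternative. The cause of these changes was not tested. The number of arrays, 3 per group, limits the precision.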
